A study of Mus musculus with 14 samples.

Results

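The 9 genes described here code for modulators of the Wnt pathway in the mouse mammary gland. They include the receptors Lgr5, Lgr4 and Fzd7, the agonist Rspo1 and the inhibitors Nkd2 and Sfrp1. The others are the Dickkopf family member Dkk3, the transcription factor Tcf7l1 and the target gene Axin2. All 9 were taken by gene symbol from the annotation of the arrays, which gave them 14 of 45281 probes and 9 of 19057 named genes. A probe was tested when its detection p-value was below 0.05 on at least 3 arrays. That left 11 probes of 8 genes, since the only Lgr4 probe was not detected on any of the 14 arrays.

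RNA came from cells of FVB/NJ mice, with no other allele or agent named for any group, and was hybridised to single-colour Illumina mouse BeadChips. Cells without CD45, CD31 and TER119, the surface markers of leukocytes, endothelium and erythroid cells, were sorted on CD24 and CD29. The CD29-high CD24-positive fraction is called MaSC-enriched, for mammary stem cells, and the CD29-low CD24-positive fraction luminal, with a stated purity above 90%. Each array held a pool of mice, and the groups were pregnant MaSC-enriched (4 arrays), virgin MaSC-enriched (3), pregnant luminal (4) and virgin luminal (3), with pregnancy at day 12.5. The MaSC-enriched fraction also holds mature basal and myoepithelial cells, so it is a mixture in which stem cells are a part. The labels call the arrays biological replicates, and p-values measure the spread between these pools.

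Wnt ligands bind Frizzled receptors and their LRP co-receptors, which stabilises beta-catenin and lets it act with TCF and LEF factors on target genes. R-spondins bind the LGR receptors and strengthen the signal by removing ubiquitin ligases that clear Frizzled receptors from the surface, while secreted antagonists and intracellular inhibitors dampen it. In the mammary gland, Wnt signals are known for maintaining basal stem cells, and R-spondin 1 is known as a hormone-responsive factor of luminal cells.

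Between 34.8% and 42.3% of probes were detected per array, and the median raw intensity ran from 105 to 165 units. Virgin MaSC-enriched arrays resembled each other less (Pearson r 0.909 to 0.942 over tested probes) than pregnant MaSC-enriched arrays did (0.978 to 0.988). The arrays sat on 4 chips, of which only chip 4 held all 4 groups, and chip 2 held a single virgin MaSC-enriched array. Pregnant MaSC-enriched arrays were on chips 3 and 4 and virgin ones on chips 1, 2 and 4, so state and chip were largely confounded in this population. Chip 4 held a single array of each group, so each difference within chip 4 sets a single array against another. The sort labels were borne out by basal markers: all 9 tested markers were higher in MaSC-enriched than in luminal cells of virgin mice, and 7 of 9 in pregnant mice. The keratin gene Krt5 was not detected on any luminal array.

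Levels below are log2 normalized intensities, on which the lowest detected value of an array lay between 5.46 and 6.05. Values below that range are not well above background, and levels of different genes are not comparable because each probe has its own brightness. Differences are log2 values of pregnant minus virgin or MaSC-enriched minus luminal, tested with limma, and adjusted p-values cover all 20906 tested probes of a comparison.

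Promoter windows, from 250 bases before to 50 bases after the start site, were listed for 6 of the 9 genes in the RefSeq table of build GRCm38.p6. Rspo1, Tcf7l1 and Axin2 are printed because their RNA rose in pregnant luminal cells, and Fzd7 because it alone held a match to the core of the TCF and LEF binding motif. That core was searched on both strands as the letters CTTTG followed by a pair of letters that are each A or T, a set of 4 forms. Of all 32851 promoters in the table, 16.9% held at least 1 form. The match in Fzd7, in capitals, lies on the opposite strand, so it reads as the reverse complement, and it begins 130 bases before the start site. Rspo1 is at chr4:124986180-124986479, Fzd7 at chr1:59481897-59482196 and Axin2 at chr11:108920099-108920398 on the plus strand, and Tcf7l1 is at chr6:72788996-72789295 on the minus strand. Sequences run 5′ to 3′ along the gene's own strand.
Rspo1: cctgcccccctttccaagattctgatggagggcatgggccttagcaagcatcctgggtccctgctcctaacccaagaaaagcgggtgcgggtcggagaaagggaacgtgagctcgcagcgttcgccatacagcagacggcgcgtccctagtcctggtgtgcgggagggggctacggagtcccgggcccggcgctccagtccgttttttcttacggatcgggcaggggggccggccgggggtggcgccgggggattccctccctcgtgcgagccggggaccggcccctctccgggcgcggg
Fzd7: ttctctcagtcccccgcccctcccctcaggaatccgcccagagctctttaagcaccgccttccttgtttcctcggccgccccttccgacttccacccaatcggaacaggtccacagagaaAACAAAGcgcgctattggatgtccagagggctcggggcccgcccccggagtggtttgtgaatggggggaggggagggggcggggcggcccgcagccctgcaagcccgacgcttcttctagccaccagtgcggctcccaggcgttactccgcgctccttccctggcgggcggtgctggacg
Tcf7l1: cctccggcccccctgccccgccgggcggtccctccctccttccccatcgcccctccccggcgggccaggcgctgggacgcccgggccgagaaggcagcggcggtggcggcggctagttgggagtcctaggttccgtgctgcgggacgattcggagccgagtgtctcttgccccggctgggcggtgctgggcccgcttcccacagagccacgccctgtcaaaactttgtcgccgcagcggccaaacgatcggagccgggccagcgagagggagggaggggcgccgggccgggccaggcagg
Axin2: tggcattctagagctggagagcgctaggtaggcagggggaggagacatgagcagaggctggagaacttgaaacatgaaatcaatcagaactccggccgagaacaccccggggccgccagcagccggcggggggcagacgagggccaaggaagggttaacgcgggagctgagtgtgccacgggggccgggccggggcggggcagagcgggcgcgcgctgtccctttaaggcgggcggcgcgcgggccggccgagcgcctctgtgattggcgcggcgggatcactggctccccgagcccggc
The windows of Lgr4 and Nkd2 also held no match, so 1 of 6 did. No entry was used for Lgr5, Sfrp1 or Dkk3.

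Lgr5, a receptor for R-spondins that marks stem cells in several epithelia, was high on virgin MaSC-enriched arrays and near background elsewhere. Its level was 6.19, 5.24, 5.53 and 5.71 on pregnant MaSC-enriched arrays, against 10.45, 10.44 and 9.44 on virgin MaSC-enriched arrays. Only the first of these pregnant arrays detected it, and all 3 virgin arrays did. The groups did not overlap, and the lowest virgin value stood 3.25 above the highest pregnant one. Pregnant MaSC-enriched cells averaged 5.67 ± 0.40 (SD, n = 4) and virgin ones 10.11 ± 0.58 (SD, n = 3), a fitted difference of -4.44 (SE 0.27, adjusted p = 1.28e-06). With the 3 undetected arrays at their lowest detected value or their own value, whichever is higher, the level was at least 20.1-fold lower in pregnancy. The size depends on the background correction, since the fitted fold was 13.3 with an offset of 50 and 7.98 without correction. Within chip 4 the difference was -3.72, and with chip as a block -4.30. In bulk RNA, fewer Lgr5-positive cells and less Lgr5 RNA per cell cannot be told apart.

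Luminal cells gave Lgr5 values from 4.72 to 5.01 on pregnant arrays and from 4.98 to 5.33 on virgin arrays, with no detection on any of the 7. No luminal fold is therefore given. Virgin MaSC-enriched cells exceeded virgin luminal cells at least 22.3-fold (adjusted p = 8.03e-09). The fitted fold was 16.2 with an offset of 50 and 9.20 without background correction. In pregnant mice the population difference was 0.77 (SE 0.25, adjusted p = 0.0219), with 1 of 4 MaSC-enriched and 0 of 4 luminal arrays detecting the gene, so no fold can be stated. That last call was lost with an offset of 50 in the background correction (0.43, adjusted p = 0.109), and so it was when replicate 1 of the pregnant MaSC-enriched arrays was left out (0.60, adjusted p = 0.0786).

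The second Lgr5 probe was not tested, because it was detected only on virgin MaSC-enriched replicate 2, at 6.33. It gives no independent check of the fall in pregnancy. Lgr4, the related receptor of broader tissue range, read 4.72 to 4.80 on pregnant MaSC-enriched, 4.64 to 5.16 on virgin MaSC-enriched, 4.65 to 4.93 on pregnant luminal and 4.65 to 4.83 on virgin luminal arrays. All of these are below detection, so this probe gives no Lgr4 level in any group.

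Rspo1, the secreted agonist bound by LGR receptors, was the only one of the 8 tested genes that was higher in luminal than in MaSC-enriched cells in both states, and it rose in pregnancy in both populations. Its luminal level was 10.33, 10.62, 10.63 and 10.58 on pregnant arrays, against 6.75, 5.58 and 8.41 on virgin arrays. The pregnant values lay close together, whereas the virgin values were spread out and replicate 2 was not detected. Pregnant luminal cells averaged 10.54 ± 0.14 (SD, n = 4) and virgin luminal cells 6.91 ± 1.42 (SD, n = 3), a difference of 3.63 (SE 0.46, adjusted p = 5.09e-05). Within chips 1, 3 and 4 it was 3.72, 5.06 and 2.16, and it was 2.96 without virgin luminal replicate 2 and 4.38 without virgin luminal replicate 3.

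In MaSC-enriched cells Rspo1 read 7.32, 8.26, 7.46 and 7.93 on pregnant arrays, against 5.06, 5.0 and 5.56 on virgin arrays, none of which detected it. The pregnant level was at least 4.36-fold higher (fitted difference 2.54, SE 0.46, adjusted p = 0.00525), and the difference within chip 4 was 2.37. Its fitted fold was 3.51 with an offset of 50 and 2.42 without background correction. The rises did not differ detectably between populations, with an interaction, the MaSC-enriched rise minus the luminal one, of -1.09 (95% interval -2.49 to 0.31, adjusted p = 0.368). Without virgin luminal replicate 3, the brightest of that group, the interaction was -1.84 (adjusted p = 0.0194).

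Between populations, Rspo1 was 6.95-fold lower in MaSC-enriched than in luminal cells of pregnant mice (log2 -2.80, SE 0.43, adjusted p = 9.27e-05). In virgin mice it was at least 2.46-fold lower in MaSC-enriched cells (fitted difference -1.71, SE 0.49, adjusted p = 0.0169). The virgin call rested on 1 array: without virgin luminal replicate 3 the difference was -0.96 (adjusted p = 0.0584), while without virgin luminal replicate 2 it was -2.37. Ordered by mean, pregnant luminal cells came first without overlap, followed by pregnant MaSC-enriched and virgin luminal cells, whose ranges overlapped, and then virgin MaSC-enriched cells.

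**Figure D1:**
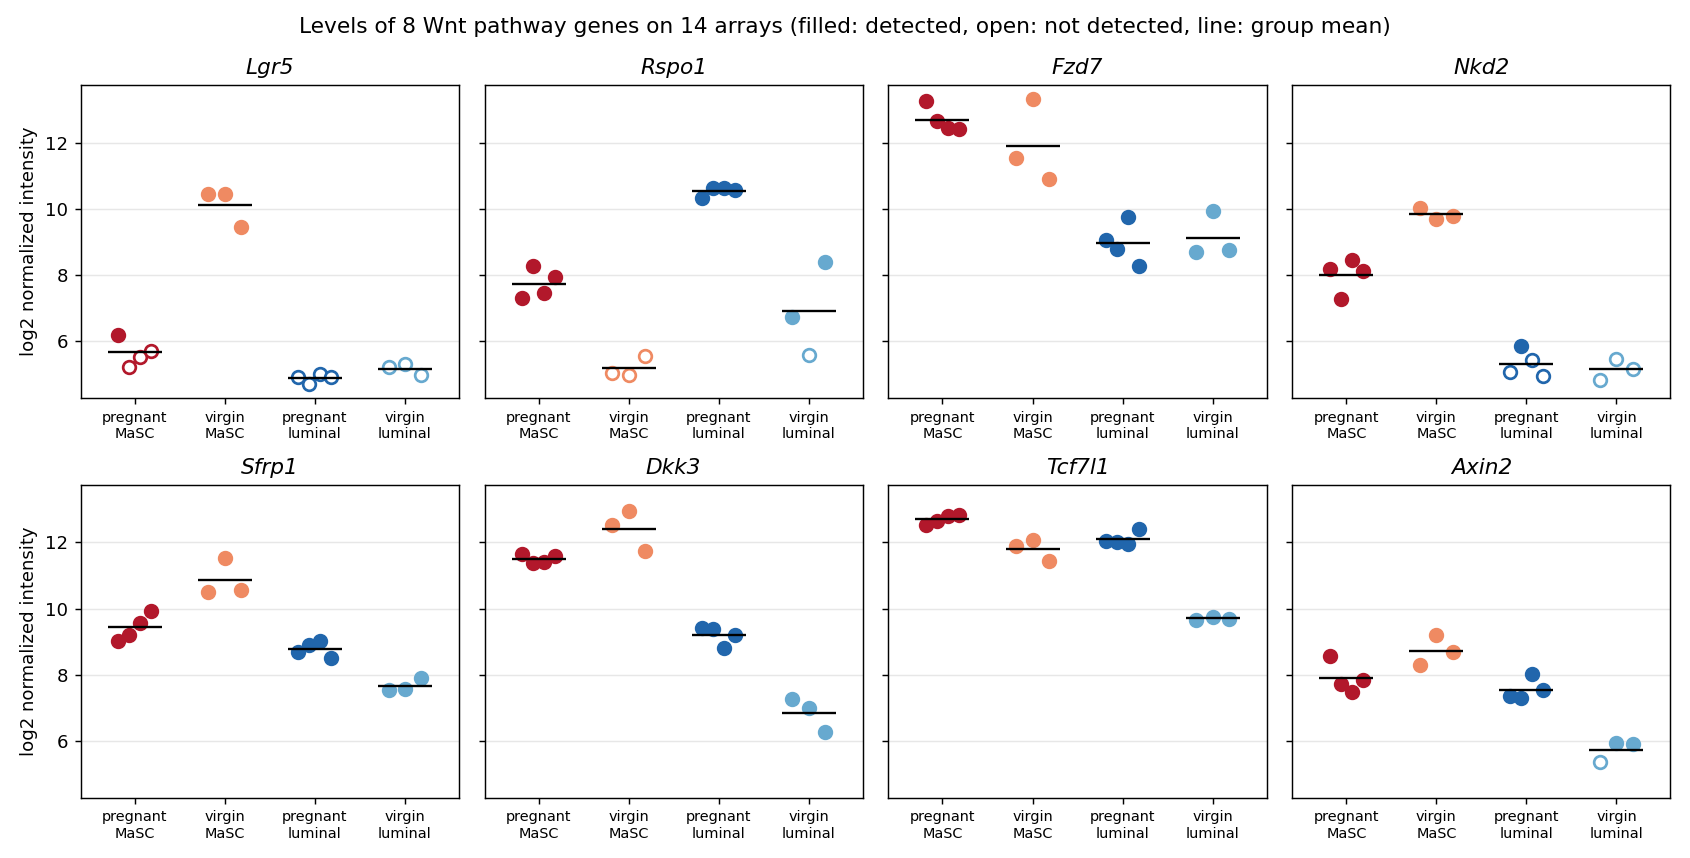
Log2 normalized intensity (vertical axis) of the 8 tested genes on each of 14 arrays, with a panel per gene, a column per group, filled points for detected and open points for undetected arrays, and a line at the group mean. Lgr5 stands at 9.44 to 10.45 on virgin MaSC-enriched arrays and at 6.19 or below on all other arrays, while Rspo1 is highest on pregnant luminal arrays.

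Fzd7, a Frizzled receptor found in basal mammary cells, was higher in MaSC-enriched than in luminal cells in both states and showed no pregnancy difference past the test in either population. Its level was 13.24, 12.64, 12.43 and 12.40 on pregnant MaSC-enriched arrays, against 11.53, 13.31 and 10.89 on virgin MaSC-enriched arrays, so the groups overlapped. The difference was 0.77 (95% interval -0.30 to 1.83, adjusted p = 0.443), and leaving out replicate 2 of the virgin MaSC-enriched arrays gave 1.46 (adjusted p = 0.0435).

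Luminal Fzd7 levels were 8.29 to 9.76 in pregnant and 8.69 to 9.94 in virgin mice, a difference of -0.15 (95% interval -1.21 to 0.91, adjusted p = 0.888) that changed sign when some arrays were left out. MaSC-enriched cells exceeded luminal cells 13-fold in pregnant mice (log2 3.69, SE 0.46, adjusted p = 1.23e-05) and 6.87-fold in virgin mice (log2 2.78, SE 0.53, adjusted p = 0.000932). The virgin fold was 4.23 when replicate 2 of the virgin MaSC-enriched arrays was left out. The lowest MaSC-enriched array, at 10.89, was above the highest luminal array, at 9.94.

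Nkd2, an inhibitor that binds Dishevelled inside the cell, fell in pregnant MaSC-enriched cells. Its level there was 8.19, 7.29, 8.45 and 8.13, against 10.04, 9.69 and 9.78 on virgin MaSC-enriched arrays, with no overlap. Means were 8.01 ± 0.50 (SD, n = 4) in pregnant and 9.84 ± 0.18 (SD, n = 3) in virgin cells, which is 3.54-fold lower in pregnancy (log2 -1.82, SE 0.29, adjusted p = 0.00189). Within chip 4 the difference was -1.64. In luminal cells Nkd2 was detected on 1 of 4 pregnant arrays, at 5.87, and on 0 of 3 virgin arrays, so no luminal change was measurable. MaSC-enriched cells exceeded luminal cells at least 18.5-fold in virgin mice (adjusted p = 2.67e-08). In pregnant mice the level was at least 4.49-fold higher, with the 3 undetected luminal arrays treated in the same way (fitted difference 2.68, SE 0.27, adjusted p = 1.17e-06). With an offset of 50 the fitted folds were 13.5 in virgin and 3.94 in pregnant mice. Without background correction they were 7.85 in virgin and 2.67 in pregnant mice.

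Sfrp1, a secreted protein that sequesters Wnt ligands, moved in opposite directions in the populations. In MaSC-enriched cells it read 9.03, 9.21, 9.57 and 9.94 on pregnant arrays, against 10.51, 11.54 and 10.56 on virgin arrays, and fell 2.70-fold in pregnancy (log2 -1.43, SE 0.28, adjusted p = 0.00809). This fall was smaller between arrays of 1 chip: it was -0.62 within chip 4 and -1.01 with chip as a block (adjusted p = 0.0743). In luminal cells Sfrp1 read 8.70, 8.89, 9.03 and 8.50 on pregnant arrays, against 7.54, 7.58 and 7.90 on virgin arrays, and rose 2.16-fold (log2 1.11, SE 0.28, adjusted p = 0.0104). Neither pair of groups overlapped. The luminal rise was 1.26, 1.45 and 0.60 within chips 1, 3 and 4, and 0.75 with median scaling of the arrays (adjusted p = 0.152).

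The second Sfrp1 probe gave -1.35 in MaSC-enriched cells (adjusted p = 0.00903) and 1.41 in luminal cells (adjusted p = 0.00147). With these movements, the populations differed 9.18-fold in virgin mice, MaSC-enriched above luminal (log2 3.20, SE 0.30, adjusted p = 7.95e-07). In pregnant mice their ranges overlapped, at 9.03 to 9.94 in MaSC-enriched and 8.50 to 9.03 in luminal cells. The pregnant difference of 0.66 had an adjusted p of 0.0561, which several alternative settings moved below 0.05.

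Dkk3, a secreted member of the Dickkopf family, rose in luminal cells to 9.40, 9.38, 8.82 and 9.19 on pregnant arrays, against 7.26, 7.0 and 6.27 on virgin arrays. That was a 5.12-fold higher level (log2 2.36, SE 0.29, adjusted p = 3.5e-05), and within chips 1, 3 and 4 the difference was 2.13, 1.82 and 2.92. MaSC-enriched levels were 11.66, 11.37, 11.42 and 11.59 in pregnant mice, against 12.51, 12.94 and 11.73 in virgin mice. Although these ranges did not overlap, the difference of -0.88 did not pass the test (SE 0.29, adjusted p = 0.105). It was -0.14 within chip 4 and -1.21 when replicate 3 of the virgin MaSC-enriched arrays was left out (adjusted p = 0.0223).

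The second tested Dkk3 probe differed by 1.97 in luminal cells (adjusted p = 0.00108) and by -1.31 in MaSC-enriched cells (adjusted p = 0.0520). Another Dkk3 probe was detected on 1 array and not tested. MaSC-enriched cells exceeded luminal cells 46.9-fold in virgin mice (log2 5.55, SE 0.31, adjusted p = 5.2e-09) and 4.97-fold in pregnant mice (log2 2.31, SE 0.27, adjusted p = 5.69e-06).

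Tcf7l1, a TCF family factor known mainly as a repressor of Wnt targets, rose in pregnancy in both populations. Its luminal level was 12.03, 12, 11.96 and 12.41 on pregnant arrays, against 9.65, 9.76 and 9.70 on virgin arrays. The groups stood far apart relative to their spread, at 12.10 ± 0.21 (SD, n = 4) and 9.70 ± 0.05 (SD, n = 3), and the rise was 5.27-fold (log2 2.40, SE 0.19, adjusted p = 6.45e-07). Within chips 1, 3 and 4 it was 2.36, 2.21 and 2.71.

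In MaSC-enriched cells Tcf7l1 read 12.51, 12.65, 12.79 and 12.81 on pregnant arrays, against 11.90, 12.06 and 11.43 on virgin arrays, again without overlap. The rise was 1.85-fold (log2 0.89, SE 0.19, adjusted p = 0.0172), and it was 1.37 within chip 4. Its call was lost with median scaling (0.72, adjusted p = 0.0827) and when pregnant MaSC-enriched replicate 3 or 4 or virgin MaSC-enriched replicate 3 was left out (adjusted p 0.0534, 0.0542 and 0.0616). The luminal rise exceeded the MaSC-enriched one, with an interaction of -1.51 (SE 0.28, adjusted p = 0.00317).

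A second, dimmer Tcf7l1 probe rose in both populations (1.14 in MaSC-enriched, adjusted p = 0.00909, and 1.26 in luminal cells, adjusted p = 0.000971). Its interaction was -0.12 (95% interval -0.80 to 0.56, adjusted p = 0.877), so the probes disagree on whether the luminal rise was larger. No virgin luminal array detected this second probe, which bounds its luminal rise at 1.70-fold or more. By the first probe, MaSC-enriched exceeded luminal cells 1.5-fold in pregnant (adjusted p = 0.0172) and 4.28-fold in virgin mice (adjusted p = 1.57e-06). The second probe passed in neither state, with fitted differences of 0.50 in pregnant (adjusted p = 0.0690) and 0.62 in virgin mice (adjusted p = 0.0663). With the mean of both probes the virgin fold was 2.57.

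Axin2, a negative regulator of beta-catenin that is itself a widely used readout of Wnt signalling, rose in luminal cells. Its luminal level was 7.36, 7.30, 8.03 and 7.53 on pregnant arrays, against 5.37, 5.93 and 5.91 on virgin arrays, the first of which did not detect it. The groups did not overlap, and the rise was 3.52-fold (log2 1.82, SE 0.29, adjusted p = 0.000377). It was 1.96, 2.09 and 1.62 within chips 1, 3 and 4.

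MaSC-enriched Axin2 levels were 8.56, 7.71, 7.47 and 7.84 in pregnant mice, against 8.30, 9.19 and 8.70 in virgin mice, and the groups overlapped. The difference of -0.84 did not pass the test (95% interval -1.46 to -0.21, adjusted p = 0.130). Between populations, Axin2 was 7.97-fold higher in MaSC-enriched than in luminal cells of virgin mice (log2 3.00, SE 0.31, adjusted p = 2.53e-06). In pregnant mice the difference was 0.34 (95% interval -0.23 to 0.92, adjusted p = 0.341), with overlapping ranges.

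Counted together, 5 of the 8 tested genes passed the test for pregnancy in MaSC-enriched cells, 2 higher (Rspo1, Tcf7l1) and 3 lower (Lgr5, Nkd2, Sfrp1), where 5.14% of all 11350 tested genes did, 2.83% higher and 2.31% lower. Their median difference was -0.86, beside 0.03 over all tested probes. The pregnant and virgin arrays of 6 genes did not overlap, those of Lgr5, Rspo1, Nkd2, Sfrp1, Dkk3 and Tcf7l1, where 16.5% of all genes had none. Of the basal markers in MaSC-enriched cells, 0 of 9 passed in limma and 0 had an unadjusted p below 0.05, with a summed level of 102411 to 113016 units in pregnant and 86239 to 108766 units in virgin mice. That sum rests mostly on Krt14, Acta2, Myh11 and Mylk. Their means in MaSC-enriched cells, 14.05 to 14.60, lay near the top of the scale at 14.95, where a rise had little room to show. Of 12 luminal markers, the alveolar factor Elf5 rose (3.44, adjusted p = 0.000346) and the hormone-sensing factor Foxa1 fell (-2.21, adjusted p = 0.0056). Kit (1.28), Muc1 (1.15) and Esr1 (-0.73) did not pass but had an unadjusted p below 0.05 in limma. The summed luminal level overlapped, at 24613 to 33350 units in pregnant and 18756 to 30588 units in virgin MaSC-enriched cells. Of 4 leukocyte markers the T cell gene Cd3e was higher (1.56, adjusted p = 0.0230), and the summed leukocyte level did not overlap, at 1727 to 2239 units in pregnant and 743 to 1661 units in virgin MaSC-enriched cells. Of 2 adipocyte markers the hormone gene Lep was higher (1.31, adjusted p = 0.0370), with overlapping sums of 412 to 775 units in pregnant and 128 to 1034 units in virgin MaSC-enriched cells. None of 8 fibroblast, 5 endothelial or 5 pericyte markers passed in limma, and 1 fibroblast marker had an unadjusted p below 0.05. The part of luminal and other cells in the MaSC-enriched results, the rise of Rspo1 included, was not tested.

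In luminal cells 5 of the 8 genes passed for pregnancy, all higher (Rspo1, Sfrp1, Dkk3, Tcf7l1, Axin2), where 21.8% of all genes passed and 10.9% passed as higher. Their groups did not overlap either, where 33.8% of all genes had no overlap. The median difference over the 8 genes was 1.46, beside 0.05 over all tested probes. Lgr5, Fzd7 and Nkd2 were the 3 that did not pass, and of these only Fzd7 was detected on all luminal arrays. Luminal markers moved in the same comparison: 6 of 12 passed, with Muc1 higher (1.07) and 5 lower. Those were the hormone-sensing factors Foxa1 (-3.90) and Esr1 (-2.62), Cd14 (-1.10), and Pgr and Prom1, which no pregnant luminal array detected and which were at least 4.81-fold and 2.04-fold lower. Their summed level was 72162 to 90316 units in pregnant and 96279 to 104064 units in virgin luminal cells, and its part in the rises was not tested.

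**Figure D2:**
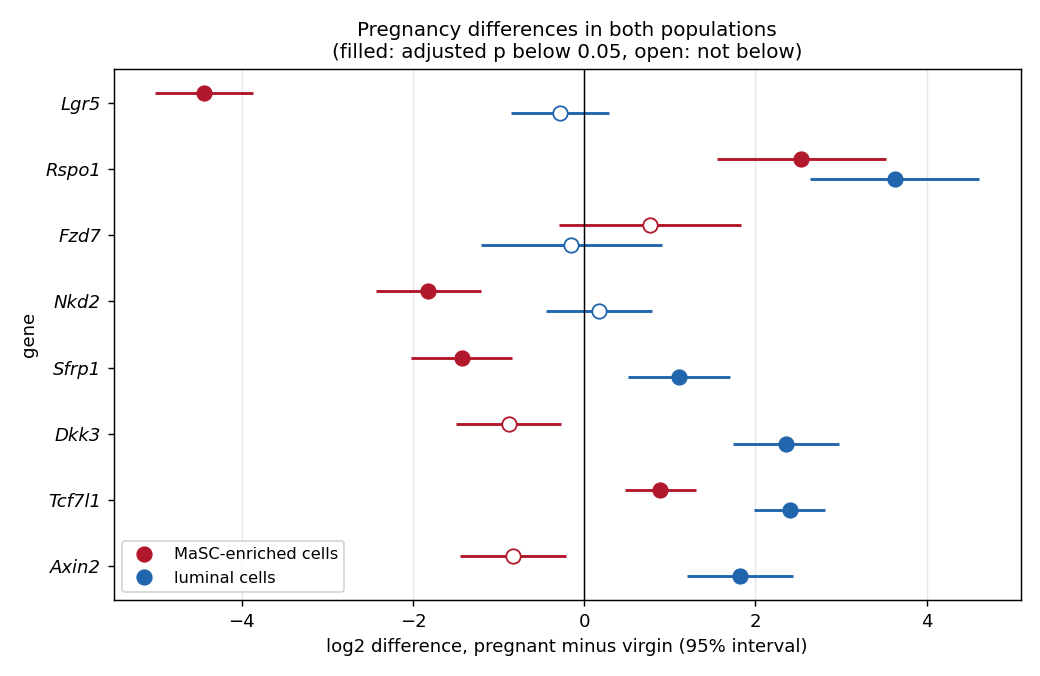
Log2 difference between pregnant and virgin mice (horizontal axis, points with 95% intervals) for each of the 8 tested genes (vertical axis) in MaSC-enriched cells (upper point) and luminal cells (lower point), filled where the adjusted p was below 0.05. Rspo1 and Tcf7l1 lie right of 0 in both populations, Lgr5 and Nkd2 are filled left of 0 in MaSC-enriched cells and open near 0 in luminal cells, and Sfrp1 is on opposite sides.

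Some basal markers also rose in pregnant luminal cells. Among 9 tested basal markers, 4 were higher in pregnant luminal cells (Krt14 2.35, Acta2 1.57, Myh11 1.93, Mylk 1.86) and 0 passed as lower, with a list median of 1.29 and Itgb1 at -0.28 (adjusted p = 0.542). Chips 1, 3 and 4 each held a single virgin luminal array. Within chip 1 the differences of Acta2, Myh11, Mylk and Krt14 were -0.15, 0.23, 0.10 and 1.58. Those of Tcf7l1, Dkk3, Axin2 and Sfrp1 were 2.36, 2.13, 1.96 and 1.26. Within chips 3 and 4 the 4 basal markers named here differed by 1.44 to 4.03. The summed level of the list was 28517 to 35660 units on pregnant luminal arrays and 4752 to 21386 units on virgin luminal arrays. Krt5 and Cnn1 were not detected on any luminal array, and the basal factor Trp63 differed by 1.29 (adjusted p = 0.0780).

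Set against MaSC-enriched cells of the same state, pregnant luminal cells held 66.6% of the Tcf7l1 level, 78.8% of the Axin2 level, 63.5% of the Sfrp1 level and 20.1% of the Dkk3 level. The corresponding shares in virgin mice were 23.4%, 12.5%, 10.9% and 2.13%, with Tcf7l1 by its first probe in both states. For basal markers the shares in pregnant mice were 1.63% for Trp63, 3.05% for Myh11 and 8.57% for Mylk, against 0.999%, 0.995% and 2.31% in virgin mice. The integrin gene Itga6 stood at 26.9% in pregnant and 22.5% in virgin mice, and Itgb1 at 39.4% in pregnant and 46.0% in virgin mice. Krt14 and Acta2 stood at 63.9% and 52.9% in pregnant and at 13.5% and 19.9% in virgin mice. The pregnant MaSC-enriched means of Krt14, Acta2, Myh11 and Mylk, at 14.36, 14.60, 14.36 and 14.43, all lay near the top of the scale at 14.95. The part of basal cells among sorted luminal cells in the rises of Sfrp1, Dkk3, Tcf7l1 and Axin2 was not tested. Rspo1, at 695% of the MaSC-enriched level in pregnant and 326% in virgin mice, was the more abundant in luminal cells.

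**Figure D3:**
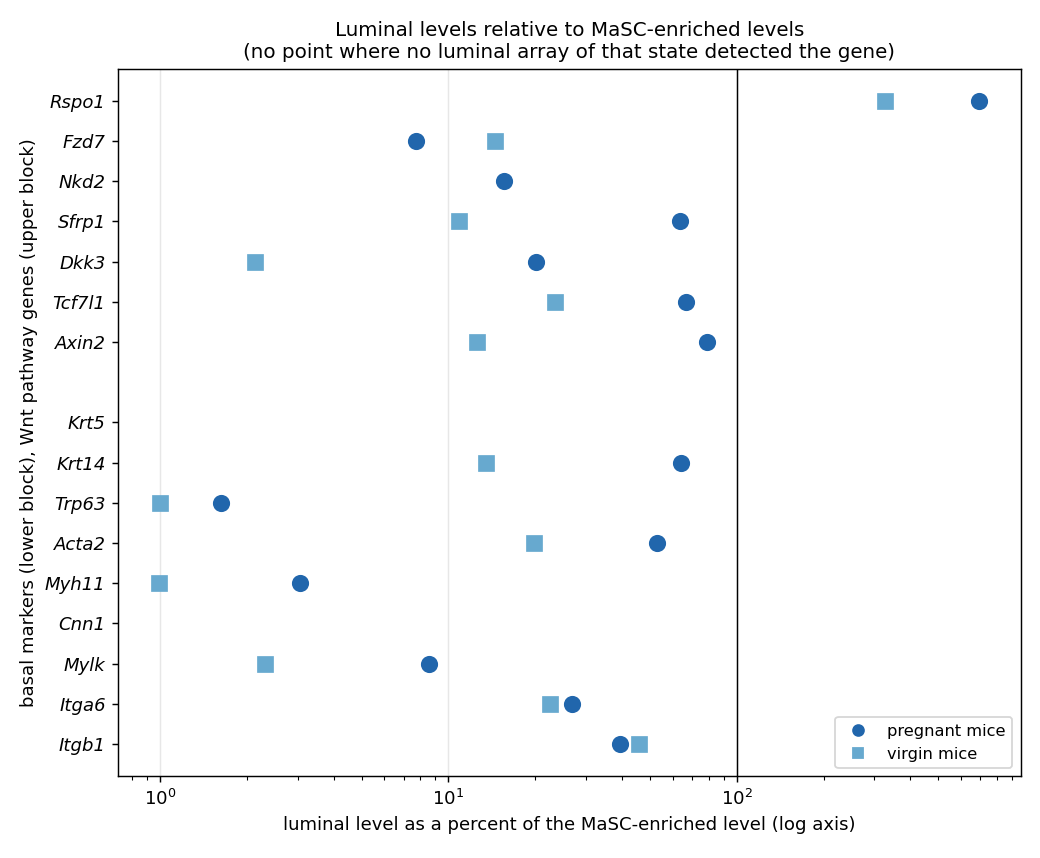
Luminal level as a percent of the MaSC-enriched level (horizontal log axis), from group means, for the Wnt pathway genes (upper block) and basal markers (lower block) in pregnant and virgin mice. Sfrp1, Tcf7l1 and Axin2 lie between 63.5% and 78.8% in pregnant mice. The plotted basal markers run there from 1.63% (Trp63) to 63.9% (Krt14), with Acta2 at 52.9%. Genes that no luminal array of a state detected have no point.

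Of the other possible contaminants of the luminal sort, fibroblast markers moved both ways in pregnant against virgin luminal cells (Col1a1 1.5, Dcn -2.36, 6 of 8 not passing), and their summed level was 3548 to 13957 units in pregnant and 12640 to 31116 units in virgin cells. Among leukocyte markers 1 of 4 tested rose, the antigen presentation gene Cd74 (1.84), with summed levels of 1356 to 2282 units in pregnant and 579 to 751 units in virgin luminal cells. None of 5 endothelial, 5 pericyte or 2 adipocyte markers passed in limma, and 0 had an unadjusted p below 0.05. The part of these cells in the results was not tested.

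Between populations, all 8 genes passed in virgin mice, 7 higher in MaSC-enriched cells and Rspo1 lower, where 32.1% of all genes passed, 15.5% higher and 16.6% lower. None of the 8 pairs of groups overlapped, where 37.7% of all genes had no overlap. In pregnant mice 6 passed, 5 higher (Lgr5, Fzd7, Nkd2, Dkk3, Tcf7l1) and Rspo1 lower, where 43.2% of all genes passed, 20.2% higher and 23% lower. Sfrp1 and Axin2 did not. These counts use the brightest tested probe of each gene, and the second Tcf7l1 probe passed in neither state. The pregnant count includes Lgr5, which 1 of 4 MaSC-enriched and 0 of 4 luminal arrays detected and whose call several alternative settings lost. The groups of the 6 that passed did not overlap, where 50% of all genes had no overlap.

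Markers of other cells were also higher in MaSC-enriched than in luminal cells. In pregnant mice 4 of 5 pericyte, 5 of 5 endothelial, 3 of 8 fibroblast, 1 of 4 leukocyte and 1 of 2 adipocyte markers were higher, and in virgin mice 4 of 5 pericyte, 0 of 5 endothelial, 2 of 8 fibroblast, 0 of 4 leukocyte and 1 of 2 adipocyte markers, with none lower in limma. In virgin mice 3 endothelial markers and 1 leukocyte marker had an unadjusted p below 0.05. The summed pericyte level was 913 to 3783 units in MaSC-enriched against 323 to 465 units in luminal cells of pregnant mice, and 1070 to 3935 units in MaSC-enriched against 288 to 462 units in luminal cells of virgin mice. The pericyte gene Rgs5 differed by 2.87 in pregnant and 3.06 in virgin mice. The part of these cells in the population differences was not tested.

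The interaction, which asks whether the pregnancy difference itself differs between the populations, passed for 6 of the 8 genes, where 8.76% of all genes passed. All 6 were below 0, where 3.39% of all genes passed below 0 and 5.37% above 0: Lgr5 (-4.16, SE 0.38, adjusted p = 1.17e-05), Dkk3 (-3.24, SE 0.41, adjusted p = 0.000196), Axin2 (-2.65, SE 0.41, adjusted p = 0.000944), Sfrp1 (-2.54, SE 0.39, adjusted p = 0.000933), Nkd2 (-2.0, SE 0.41, adjusted p = 0.00688) and Tcf7l1. The values for Lgr5 and Nkd2 are fitted ones that rest on luminal levels mostly not above background. A luminal fall could not be seen there. Their calls therefore do not settle whether the pregnancy difference differed or the population difference narrowed, and their sizes are not exact. Each of the 6 genes was higher in MaSC-enriched than in luminal cells of virgin mice, and the fitted difference between populations was smaller in pregnant mice. Among the 7 genes higher in virgin MaSC-enriched cells, the interaction was called below 0 for these 6, for Tcf7l1 by its first probe only. For Lgr5 and Nkd2 that call does not establish a narrowing. Fzd7 did not pass (0.91, 95% interval -0.59 to 2.42). Of the 1761 genes of the arrays that were higher in virgin MaSC-enriched cells, 9.31% had an interaction called below 0.

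The genes reached the smaller fitted difference by unlike routes. For Lgr5 and Nkd2 the MaSC-enriched level fell while luminal cells stayed near background. For Dkk3 and Axin2 the luminal rise passed the test and the MaSC-enriched difference did not, for Sfrp1 both passed in opposite directions, and for Tcf7l1 both rose. The median absolute population difference of the 8 genes was 1.54 in pregnant and 3.10 in virgin mice, beside 0.55 and 0.49 over all tested genes. With genes not detected on every array at their bound, it was 1.41 in pregnant and 3.06 in virgin mice.

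**Figure D4:**
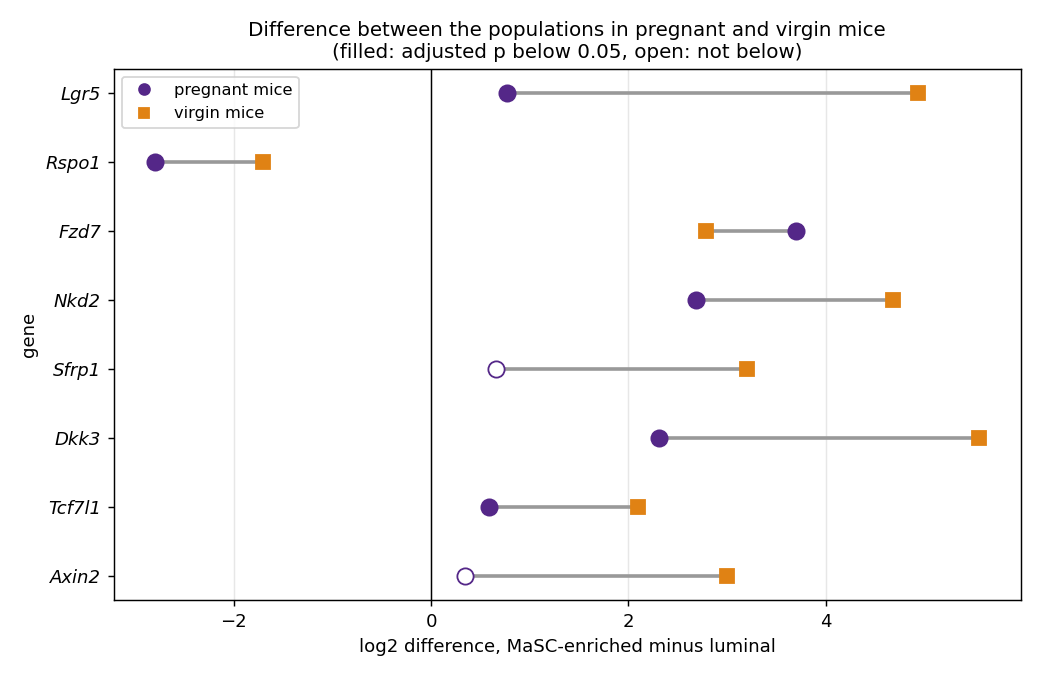
Log2 difference between MaSC-enriched and luminal cells (horizontal axis) for each of the 8 tested genes (vertical axis) in pregnant mice (circles) and virgin mice (squares), filled where the adjusted p was below 0.05. Circles of 6 genes lie nearer to 0 than their squares, and those of Fzd7 and Rspo1 lie farther out. The fitted values of Lgr5 and Nkd2 rest on luminal arrays of which 0 of 7 and 1 of 7 detected the gene.

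Another 63 genes of the pathway were listed, of which 42 had a tested probe. In MaSC-enriched cells pregnancy changed 3 of them: the receptor Fzd9, detected on 4 of 4 pregnant and 0 of 3 virgin arrays, and the BMP and Wnt antagonist Sostdc1 (1.95, adjusted p = 0.0201) rose, and Procr, a marker of a mammary stem cell subset, fell (-1.16, adjusted p = 0.0410). That is 7.14% of the 42, near the 5.14% of all genes. The count became 5 with chip as a block, where 6.25% of all probes passed, against 4.51% without it.

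In luminal cells 9 of the 42 passed, 4 higher and 5 lower, which at 21.4% equals the background within rounding of a single gene. The LGR receptor Lgr6 rose (2.14, adjusted p = 9.67e-06), as did Tnfrsf19, also called Troy and a Wnt target (3.46, adjusted p = 3.89e-05), the receptor Fzd5 (0.97) and the corepressor Tle4 (0.93). Fzd10 fell to a level detected on 1 of 4 pregnant arrays, against 3 of 3 virgin arrays (-4.43, adjusted p = 3.43e-06). The alternative Wnt receptor Ror2 (-2.13), the antagonist Sfrp2 (-1.98) and the kinase Csnk1e (-1.17) fell too, as did the adhesion receptor Cd44, also a Wnt target (-3.01). Of 5 tested genes listed as widely used Wnt targets, 1 was higher, 1 lower and 3 did not pass, with a median difference of -0.09. With weights for array quality the count over the 42 genes was 23, where 44.3% of all probes passed, against 19.5% without weights.

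Of the R-spondin module, 3 of 6 listed genes were tested. Apart from Lgr6, Rspo3 and the ubiquitin ligase Rnf43 did not pass for pregnancy in either population (Rnf43 in luminal cells 0.79, adjusted p = 0.0506). Lgr6, unlike Lgr4 and Lgr5, had a mean above background in every group, at 9.61 in pregnant MaSC-enriched, 9.30 in virgin MaSC-enriched, 8.95 in pregnant luminal and 6.81 in virgin luminal cells. Its interaction was -1.83 (SE 0.32, adjusted p = 0.00259).

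A list of other Wnt antagonists had 6 tested genes, of which Sfrp2, Wif1 and Sostdc1 code for secreted proteins and Kremen1, Kremen2 and Apcdd1 for membrane proteins. In pregnant mice 5 of 6 were higher in MaSC-enriched than in luminal cells, where 20.2% of all genes were, and in virgin mice 4 of 6, where 15.5% of all genes were, with 0 lower in either state. Kremen2 passed in neither state and Sfrp2 only in pregnant mice, and the difference between states was not called for Sfrp2 (2.09, adjusted p = 0.0691). Sostdc1 differed by 5.71 in pregnant and 4.72 in virgin mice, Wif1 by 5.04 in pregnant and 5.37 in virgin mice, and Kremen1, a co-receptor for Dickkopf proteins, by 2.26 in pregnant and 1.53 in virgin mice. None of these 6 passed the interaction in limma, and 1 had an unadjusted p below 0.05. Nkd1, the relative of Nkd2, was at least 16.6-fold higher in MaSC-enriched cells of pregnant mice and at least 10.6-fold higher in virgin mice, and its pregnancy difference in MaSC-enriched cells was 0.83 (adjusted p = 0.104).

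Over the 42 genes the interaction passed for 8, 5 below 0 (Lgr6, Fzd5, Tle4, Tnfrsf19, Procr) and 3 above 0 (Fzd9, Fzd10, Ror2), where 8.76% of all genes passed, 3.39% below and 5.37% above 0. Tnfrsf19 had the largest value below 0, at -3.86 (adjusted p = 0.00103), and in pregnant mice was lower in MaSC-enriched than in luminal cells (-2.20, adjusted p = 0.000397) while in virgin mice it was higher (1.66, adjusted p = 0.0129). With median scaling 5 of the 42 passed, where 5.16% of all probes did, against 7.59% as reported.

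The genes whose levels over the 14 arrays followed a member most closely were found by the root mean square difference between log2 values centred on each gene's mean. For Lgr5, whose own range was 5.73, these were Them5 (0.58), Aqp9 (0.76), Krt42 (0.77), Cntn2 (0.88) and Plat (0.91). Them5 averaged 5.72 in pregnant MaSC-enriched, 10.25 in virgin MaSC-enriched, 4.86 in pregnant luminal and 5.2 in virgin luminal cells. For Rspo1, with a range of 5.64, they were Ubd (0.35), Atp6v1c2 (0.55), Tenm4 (0.58), Csn1s2b (0.68) and Car2 (0.72), of which Csn1s2b codes for a casein. For Tcf7l1, with a range of 3.15, they were Gpc4 (0.31), Nrep (0.38), Lgr6 (0.39), Tnfrsf11a (0.41) and Upb1 (0.43), where Tnfrsf11a codes for the receptor RANK. All points share the same 14 arrays and their normalization, so these distances are descriptions.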

How the data were processed

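Each array measured the RNA of a cell pool. The authors deposited non-normalized probe intensity in arbitrary units, and a deposited detection p-value ranked each probe on each array against negative control probes. The deposited series matrix holds log2 values, whose background correction and quantile normalization were judged from the values. BeadStudio and limma are named, per the submitters' processing notes, with versions not given in the sources used here.

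Intensities were corrected here by limma 3.58.1 in R 4.3.3 with the normexp model (offset 16), which estimated background through the deposited detection p-values, and were then taken to log2 and quantile normalized. Probes detected (p below 0.05) on at least 3 of 14 arrays were tested, which was 20906 of 45281. Of all 45281 probes, tested or not, 10378 had no symbol and 18 had several. Each gene stands for 1 probe, the brightest on average among those tested.

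A limma model with a mean per group was fitted to all 14 arrays (10 residual and 4.74 prior degrees of freedom). Tests were two-sided, with Benjamini-Hochberg adjustment over all tested probes and a threshold of 0.05. SE is the moderated standard error. Detection limits precision on arrays, as does their number, since they give no read depth. Where no array of a group detected a probe, the fold is a bound, "at least", from each array's lowest detected value or the probe's own value, whichever is higher, as are the folds of Lgr5 and Nkd2 where 1 array did.

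The 9 genes and all lists were chosen with earlier results of these data known. All 9 genes are named whatever their values, as are up to 4 genes of each other pathway list with the largest absolute difference among those past the threshold, and the 5 genes closest in pattern to Lgr5, Rspo1 and Tcf7l1. Genes named for how many passed follow this rule, while Rspo3, Rnf43 and Nkd1 were named after their values were seen. Tcf7, Cd68 and Cfd were among the listed genes not analysed here. The fit was tested on simulated data. Alternatives covered background, scaling, filters, probe choice, chip, array weights, the replicate number and leaving out each array. Same-numbered arrays correlated in their deviations from group means at -0.168 to 0.424, with 2 of 7 over 0.1. Arrays with different numbers gave -0.446 to 0.447, with 4 of 18 over 0.1. The closest luminal array bore the same number for 3 MaSC-enriched arrays, all of them virgin, and for no pregnant one. The labels do not state a pairing, and the numbers were not taken to pair samples.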

Additional observations from a re-analysis of the deposited data

Results flagged for a closer look

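Of the groups of 4 arrays, 1 gene had an array far from the others by Dixon's test: pregnant luminal replicate 4 read 12.41 for Tcf7l1, while the other pregnant luminal arrays read 12.03, 12 and 11.96. Chance gives such a flag in about 1 of 20 groups. Without that array the luminal rise of Tcf7l1 stayed past the threshold, as it did without any other array (log2 2.29 to 2.44).

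For 6 genes the fitted pregnancy difference differed between the populations by the interaction test in limma. The values, MaSC-enriched minus luminal, were -4.16 for Lgr5, -2.0 for Nkd2, -2.54 for Sfrp1, -3.24 for Dkk3, -1.51 for Tcf7l1 and -2.65 for Axin2. The sizes and calls for Lgr5 and Nkd2 rest on luminal levels mostly not above background, where a luminal fall could not be seen. The second Tcf7l1 probe gave -0.12 (adjusted p = 0.877), and the second probes of Sfrp1 and Dkk3 gave -2.76 and -3.27.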

How the results depend on the processing

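The number of genes past the threshold stayed within 1.5 times its value in all 5 comparisons under the 11 alternative settings. Leaving out single arrays gave 4 to 6 genes for pregnancy in MaSC-enriched cells, 5 in luminal cells, 5 to 7 between populations in pregnant mice, 7 to 8 in virgin mice, and 6 to 7 for the interaction. Replicate block, a fit with the replicate number as a random block for pregnancy (consensus correlation 0.146) and as a fixed block otherwise, kept all 40 gene calls, Lgr5 and Sfrp1 included, and all 5 counts. The sign turned for 2 luminal differences that had not passed: Fzd7 was 0.21 with array weights and -0.41 to 0.26 when arrays were left out, and Nkd2 was -0.0044 to 0.33.

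Calls lost or gained beyond those named with the results were these. Lgr5 between populations of pregnant mice was lost without background correction (0.37), with median scaling (0.76), with cyclic loess (0.68), in the deposited series matrix (0.44) and without pregnant luminal replicate 2 (0.71). Rspo1 between populations of virgin mice was lost with no filter on detection (adjusted p = 0.0515), and its interaction gained without background correction (-1.45). Dkk3 in MaSC-enriched cells gained without background correction (adjusted p = 0.0475). The Tcf7l1 interaction was lost with the mean of both probes (-0.81, adjusted p = 0.0662). Sfrp1 between populations of pregnant mice gained with cyclic loess (0.83), chip as a block (0.69), array weights (0.68), and without pregnant MaSC-enriched replicate 1 (0.79) or any virgin MaSC-enriched array.

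Median scaling moved the median of all probes by -0.21 for pregnancy in luminal cells, 0.10 between populations of pregnant mice and 0.14 for the interaction, and loess moved the second of these by 0.11. With median scaling 795 probes were higher and 2327 lower in pregnant luminal cells, against 2035 and 2052. In MaSC-enriched cells it gave 250 higher and 381 lower, against 526 and 417, and for the interaction 808 and 270, against 995 and 592. Signal near background limits Lgr5, Nkd2 and Axin2 in luminal cells and Rspo1 in virgin cells. Several other folds shrank without background correction. In virgin mice Dkk3 was then 24.9-fold and Axin2 3.44-fold higher in MaSC-enriched than in luminal cells, and Rspo1 was 1.82-fold lower. The luminal rises in pregnancy were 6.61-fold for Rspo1, 3.14-fold for Dkk3 and 1.89-fold for Axin2.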
